A study of Mus musculus with 32 samples.

Results

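Liver RNA of MCAD-KO and WT mice was compared after 6 weeks on a high-fat (HF) diet and 16 h of fasting, in 7 of the 32 mice of the series. The KO mice carried a whole-body knockout of Acadm, the gene of medium-chain acyl-CoA dehydrogenase (MCAD), the WT mice were littermates, and all were male C57BL/6J mice. The age labels, which carry no unit, were 10, 11.5 and 11.5 for KO replicates 1 to 3 and 13.5, 11, 13 and 8.5 for WT replicates 1 to 4. The mice were chosen by their labels: KO replicates 1, 2 and 3 against WT replicates 1, 2, 3 and 4, all HF fasted. The library labelled KO replicate 4 was left out because its profile was that of heart: its 12 heart markers summed to 35496 CPM, counts per 1000000 of the scaled library, against at most 60.4 in the 31 other mice, and its 10 hepatocyte markers to 1010 CPM, where every other mouse had 46639 CPM or more and the 7 mice compared had 59614 to 83549 CPM. The other 24 mice were KO and WT mice, 4 per group, of the low-fat (LF) fed, LF fasted and HF fed conditions, and served only to show where the HF fasted comparison differed. The 3′ libraries give reads from the ends of polyadenylated RNAs, so that a value counts transcript ends of a gene, and the 7 mice had 2471773 to 4292200 counts each. The mice are separate animals, and a change in bulk RNA cannot tell fewer cells of a type from less RNA per cell.

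MCAD catalyses the first step of each round of mitochondrial β-oxidation for fatty acids of medium chain length. During fasting, fatty acids released from adipose tissue enter the liver, where they activate the nuclear receptor PPARα, are oxidized and feed ketone body synthesis, while amino acids and glycerol feed gluconeogenesis. The liver also secretes most plasma proteins, and on inflammatory signals such as IL-6 and IL-1 it raises the acute-phase proteins, among them serum amyloid A, fibrinogen and haptoglobin.

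Before the genotypes were compared, the expression programme of each mouse was set beside its label. Of 25 genes of PPARα targets and the peroxisome, the summed level was 10646, 35494 and 30468 CPM in KO replicates 1, 2 and 3, and 23673, 13614, 32173 and 28676 CPM in WT replicates 1 to 4. KO replicate 1 and WT replicate 2, although labelled fasted, lay within the range of the 8 HF fed mice, 7453 to 15344 CPM, and the other 5 fasted mice lay above it. Cyp4a14, a fatty acid ω-hydroxylase induced by PPARα, a member of the list, was also lowest in these mice, with 1123, 12148 and 7840 CPM in the KO mice and 5138, 1432, 11905 and 8536 CPM in the WT mice. Cpt1a, the carnitine palmitoyltransferase that admits long-chain fatty acids to mitochondria, was at 239, 544 and 652 CPM in KO and at 481, 268, 548 and 502 CPM in WT mice. Plin2, a coat protein of lipid droplets, was at 187, 620 and 540 CPM in KO and at 517, 176, 465 and 555 CPM in WT mice. Over the 60 genes tested of β-oxidation, acyl-CoA thioesterases and PPARα targets, Acadm left out, these were the 2 lowest mice for 44 genes, and each was among the 2 lowest for 48, against 3 to 6 genes for any other mouse. Both libraries came from lane 7. The cause of these low levels was not tested, and several results below are also given without both mice, an alternative chosen after seeing the data.

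**Figure D1:**
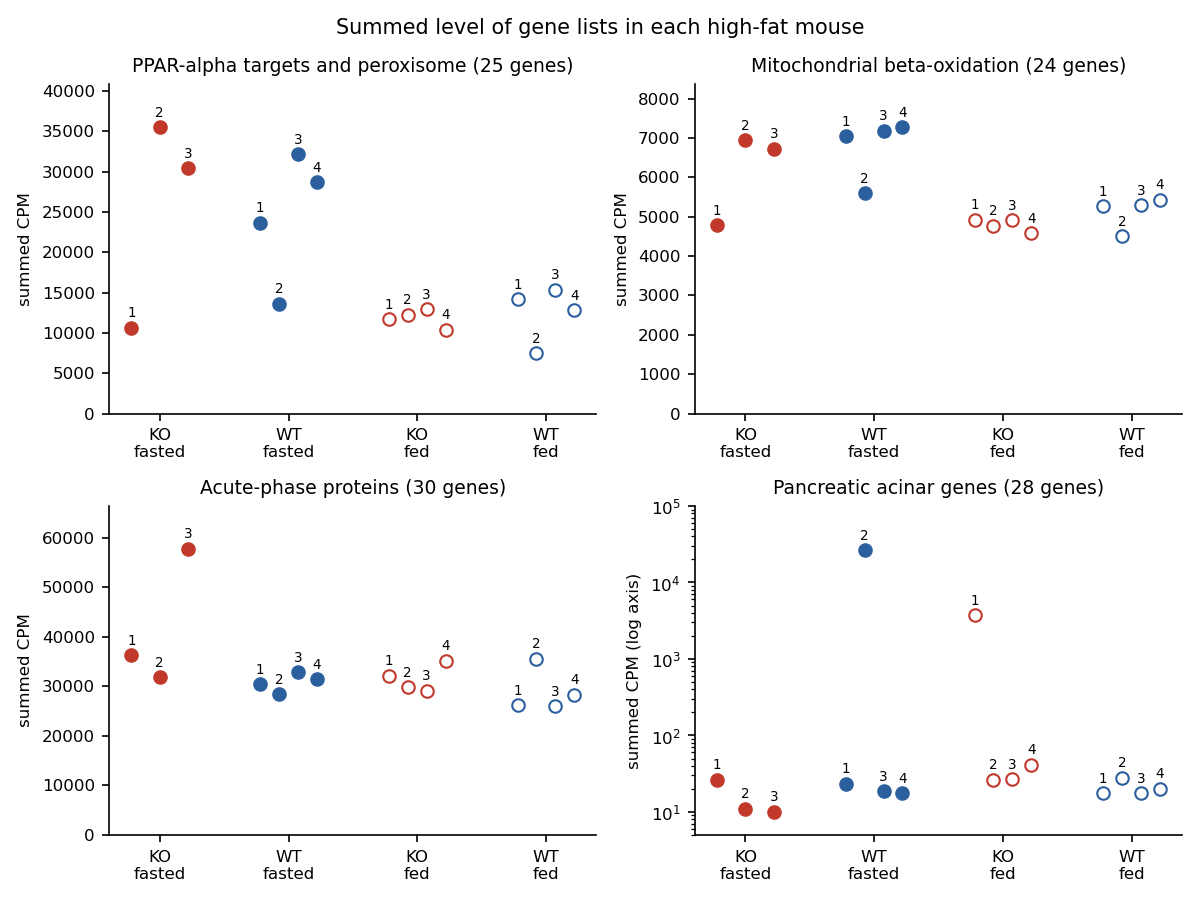
Summed CPM of 4 gene lists in each HF mouse, with KO mice in red, WT mice in blue, fasted mice as filled and fed mice as open circles, replicate numbers above the points and a log axis for the acinar genes. KO replicate 1 (10646 CPM) and WT replicate 2 (13614 CPM) lie among the fed mice for PPARα targets, KO replicate 3 stands apart for acute-phase proteins (57758 CPM), and WT replicate 2 for acinar genes (26340 CPM).

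The Acadm transcript (ENSMUSG00000062908, GRCm38 chr3:153922357-153944632, minus strand) was depleted in every KO mouse. It was at 18.9, 27.5 and 25.7 CPM in KO replicates 1 to 3 and at 665, 396, 647 and 622 CPM in WT replicates 1 to 4, with means of 24.04 ± 4.55 (SD, n = 3) and 583 ± 125 (SD, n = 4). The groups did not overlap, and the lowest WT mouse was replicate 2. The log2 fold change was -4.60 (SE 0.25), and Acadm was the one gene of 10413 tested (0.0096%) with an adjusted p under 0.05, at 1.64e-08 by the edgeR quasi-likelihood test with Benjamini-Hochberg adjustment. A two-sided exact permutation test of 3 against 4 mice cannot give a p below 0.0571, which is what Acadm and every other gene with complete separation reached. The library labelled KO replicate 4 also had little Acadm, 22.2 CPM.

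At an unadjusted p below 0.01, the exploratory threshold of the study, 77 genes differed, which is 0.739% of those tested and less than the 1% that this threshold lets through by itself. The KO mice were higher for 38 of them (0.365%) and lower for 39 (0.375%), and 47 differed by less than 2-fold. All 3 KO mice lay above all WT mice for 273 genes (2.62%) and below them for 278 (2.67%). A gene was called shared by all KO mice when its p was below 0.01, its KO mice all lay outside the WT range, and it neither moved by 1 or more on the log2 scale nor lost a p below 0.05 when KO replicate 3 or WT replicate 2 was left out. This held for 59 genes (0.567%), 24 higher and 35 lower in KO. Acadm aside, their log2 fold changes were between 0.49 and 1.77 in size. Without KO replicate 1 and WT replicate 2, 54 of the 59 kept a p below 0.05 and 23 a p below 0.01. Over all 10413 genes 255 were higher and 242 lower at p below 0.05 in that fit. The 59 were picked for separation in these same mice, so a low p is largely built in and is no separate support. Each single gene below is therefore a candidate that did not pass the correction for the number of genes tested.

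The gene nearest to that correction after Acadm was Slco1a4 (ENSMUSG00000030237, chr6:141805440-141856199, minus strand), an organic anion transporter of the OATP family that carries bile acids, steroid conjugates and drugs. It was at 28.98, 37.5 and 28.99 CPM in the KO mice and at 63.7, 79.6, 62.8 and 60.5 CPM in the WT mice, and the groups did not overlap. The log2 fold change was -1.07 (SE 0.18, edgeR adjusted p = 0.103 with Benjamini-Hochberg), and -0.91 without KO replicate 1 and WT replicate 2. With DESeq2, Slco1a4 and Acadm were the 2 genes with an adjusted p under 0.05. Of 31 genes of bile acid synthesis and transport tested, Slco1a4 was the only member at p below 0.05. Over all genes 1.97% were lower and 1.72% higher at that p. All KO mice lay below the WT range for 4 members and above it for none, against 2.67% and 2.62% of all genes. The list's median log2 fold change was -0.14, against -0.01 over all genes tested, and -0.05 without KO replicate 3. Abcb11, the canalicular bile salt export pump, was at 312, 240 and 216 CPM in KO and at 323, 348, 311 and 332 CPM in WT mice, with KO replicate 1 just inside the WT range (log2 fold change -0.36, SE 0.17).

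Genes of drug and steroid metabolism had mostly negative log2 fold changes. Of 37 cytochromes P450 of families 1 to 3 and flavin monooxygenases tested 25 were negative, with a median of -0.21, and 6 were lower and 2 higher at p below 0.05, which over all genes held for 1.97% and 1.72%. Cyp2c38 fell with 33.2, 18.6 and 28.4 CPM in KO and 77.7, 41.9, 44.2 and 42.5 CPM in WT mice, without overlap (log2 fold change -0.95, SE 0.26). Cyp2c68, its neighbour within 1 Mb on chromosome 19, fell with 29.3, 21.3 and 32.8 CPM in KO and 51.4, 41.5, 39.8 and 42.2 CPM in WT mice (log2 fold change -0.65, SE 0.20). Reads of such closely related Cyp2c genes may be split between them by the counting. Of the 9 Cyp2c genes tested 7 were lower in KO, 3 of them with p below 0.05 and none higher with p below 0.05. This family was not among the planned lists and holds the 2 genes just named, so its counts are no separate support. Cyp3a13, another P450, rose by a log2 fold change of 0.55 (SE 0.18), but its KO values of 282, 204 and 341 CPM overlapped the WT range of 165 to 213 CPM and it was not shared by all KO mice. Without KO replicate 1 and WT replicate 2, 11 members of the P450 and monooxygenase list were lower and 2 higher at p below 0.05. Over all 10413 genes these were 242 and 255. Without KO replicate 3, 3 members of the list were lower and 1 higher, against 422 of all genes in either direction, 208 of them higher. The medians were then -0.05 for the list and -0.06 for the Cyp2c genes, which was -0.23 with all mice.

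Glutathione S-transferases conjugate glutathione to electrophiles, among them products of lipid peroxidation. Of 18 tested with the microsomal members, 16 had a negative log2 fold change, 3 were lower and none higher at p below 0.05, against 1.97% and 1.72% of all genes, and the median was -0.36, or -0.21 without KO replicate 3. Gsta4, the member with preference for 4-hydroxynonenal, fell with 22.5, 24.1 and 18.3 CPM in KO and 49.7, 32, 31.3 and 28.1 CPM in WT mice (log2 fold change -0.71, SE 0.23). Gstm1 was at 509, 388 and 437 CPM in KO and at 1094, 790, 486 and 568 CPM in WT mice, so that WT replicate 3 overlapped with KO replicate 1. WT replicate 1 was the highest WT mouse for Gsta4 and Gstm1, and the list's median was -0.17 without it. Of 17 other genes of glutathione synthesis and the Nrf2 response and of 16 UDP-glucuronosyltransferases and sulfotransferases tested, none was at p below 0.05 in either direction.

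Major urinary proteins are small pheromone-binding proteins that the male mouse liver secretes under growth hormone. Mup1 was at 51.5, 39.9 and 35.8 CPM in KO and at 14.5, 8.38, 24.5 and 22.6 CPM in WT mice, Mup21 at 148, 92.2 and 109 against 49.2, 72.8, 49.9 and 79.2 CPM, and neither overlapped. Their log2 fold changes were 1.26 (SE 0.29) and 0.90 (SE 0.21). Mup16 (0.79, SE 0.21) also rose without overlap, and Mup15 (1.22, SE 0.40) rose over all mice although KO replicate 2 with 4.82 CPM lay below the WT values of 4.94 to 7.03 CPM. All 13 family members tested had a positive log2 fold change, with a median of 0.72, and over all genes 48.8% were positive. A p below 0.01 was reached by 4, all higher in KO, against 0.365% of all genes. The family was not among the planned lists and holds genes already named for their small p, so these counts are no separate support. The family consists of near-identical copies clustered on chromosome 4 (chr4:60066469-62150863), so that reads may be counted on the wrong copy and the members are not separate observations. KO replicate 1 was the highest of the 7 mice for Mup1, Mup16 and Mup21, and without it and WT replicate 2 the family's median was 0.38, with Mup1 at 0.89 and Mup21 at 0.78. The 18 male-biased genes and growth hormone targets tested form a list that holds Mup1, Mup3, Mup20 and Mup21 as well. Of these 18, 4 were higher and none lower at p below 0.05, against 1.72% and 1.97% of all genes. Cyp4a12a, a male-specific hydroxylase, was at 485, 415 and 325 CPM in KO and at 118, 251, 307 and 320 CPM in WT mice (log2 fold change 0.71, SE 0.29).

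Genes of secreted plasma proteins and of protein folding in the endoplasmic reticulum had mostly positive log2 fold changes. C8b and C8a encode the β and α chains of complement component 8, part of the membrane attack complex, and lie next to each other on chromosome 4. C8b rose with 206, 161 and 184 CPM in KO and 111, 136, 138 and 114 CPM in WT mice (log2 fold change 0.56, SE 0.16), and was shared by all KO mice. C8a was at 590, 562 and 821 CPM in KO and at 395, 545, 375 and 470 CPM in WT mice, did not overlap either (0.56, SE 0.19), and had a p of 0.071 without KO replicate 3. C8g, the gene of the γ chain, was at 170, 158 and 223 CPM in KO and at 324, 201, 207 and 231 CPM in WT mice (-0.39, SE 0.20). Of 33 coagulation and complement genes tested, 4 were higher and none lower at p below 0.05, against 1.72% and 1.97% of all genes. A positive log2 fold change was seen for 23, with a median of 0.14. All KO mice lay above the WT range for 5 and below it for none, against 2.62% and 2.67% of all genes. Without KO replicate 3, in which the list had its highest sum of the 7 mice, 18374 CPM, the median was 0.05.

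Pdia5, a protein disulfide isomerase, rose with 56.7, 55.4 and 79.3 CPM in KO and 44.4, 41.9, 40.9 and 39.0 CPM in WT mice (log2 fold change 0.62, SE 0.18). Hspa5, the chaperone BiP, was at 3470, 2302 and 2211 CPM in KO and at 1031, 1895, 2274 and 1717 CPM in WT mice, with KO replicate 3 inside the WT range. Of 25 genes of folding and secretion tested, 23 had a positive log2 fold change, against 48.8% of all genes, and the median was 0.27. At p below 0.05, 4 were higher and none lower, against 1.72% and 1.97% of all genes. Without KO replicate 1 and WT replicate 2, 1 was higher at p below 0.05, against 255 of all 10413 genes, and the median was 0.22. Among cytosolic chaperones, Hspb8, a small heat shock protein, rose with 205, 250 and 283 CPM in KO and 105, 174, 161 and 159 CPM in WT mice (log2 fold change 0.72, SE 0.19). Hspa1b, an inducible Hsp70, rose with 21.5, 22.02 and 25.99 CPM in KO and 15.4, 7.62, 12.2 and 17.6 CPM in WT mice (log2 fold change 0.81, SE 0.27).

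Among genes of cofactor and mitochondrial metabolism, Nnmt, which methylates nicotinamide, rose with 148, 122 and 165 CPM in KO and 121, 101, 102 and 74.9 CPM in WT mice (log2 fold change 0.54, SE 0.18). Acmsd, which diverts tryptophan breakdown away from NAD synthesis, rose by 1.13 (SE 0.39), but KO replicate 3 with 6.02 CPM lay inside the WT range of 3.90 to 7.55 CPM. The other 30 of 32 tested genes of NAD and coenzyme A metabolism were at p above 0.05. Slc25a1, the mitochondrial citrate carrier that exports citrate for fatty acid synthesis, fell with 86.6, 83.6 and 76.04 CPM in KO and 118, 106, 130 and 139 CPM in WT mice (log2 fold change -0.59, SE 0.16). It was the only one of 25 lipogenesis and sterol genes tested at p below 0.05. Timm21, a subunit of the inner membrane translocase, fell from a WT range of 7.62 to 13.6 CPM to 4.23, 4.47 and 4.65 CPM (log2 fold change -1.19, SE 0.35). Of 76 nuclear genes of oxidative phosphorylation tested, 54 had a negative log2 fold change, against 5332 of all 10413 genes, and the median was -0.08. All KO mice lay below the WT range for 7 and above it for none, against 2.67% and 2.62% of all genes. At p below 0.05, 4 were lower and none higher, against 1.97% and 1.72% of all genes. Without KO replicate 3, 1 was lower and 2 higher at p below 0.05, against 422 of all genes in either direction, 208 of them higher. Without KO replicate 1 and WT replicate 2 it was 1 each, against 242 lower and 255 higher of all genes. None was at p below 0.01 with all mice; Uqcrc1, a core subunit of complex III, was at 68.1, 60.9 and 68.9 CPM in KO and at 80.2, 86.5, 84.7 and 79.2 CPM in WT mice. Csad, an enzyme of taurine synthesis, fell with 152, 181 and 164 CPM in KO and 235, 243, 206 and 249.4 CPM in WT mice (log2 fold change -0.50, SE 0.16).

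Further genes shared by all KO mice were of varied function. Cks1b, a cofactor of cyclin-dependent kinases, rose with 34.2, 23.7 and 25.99 CPM in KO and 12.9, 9.91, 19.3 and 12.1 CPM in WT mice (log2 fold change 1.02, SE 0.26). Mettl1, the methyltransferase for N7-methylguanosine in tRNA, rose with 20.5, 24.8 and 24.1 CPM in KO and 8.94, 14.5, 7.53 and 15.2 CPM in WT mice (log2 fold change 1.03, SE 0.27). F11r, the junctional adhesion molecule A, rose with 421, 529 and 411 CPM in KO and 228, 379, 306 and 255 CPM in WT mice (log2 fold change 0.64, SE 0.19). Each of these genes kept a p below 0.05 without KO replicate 1 and WT replicate 2, as did Ppig, a nuclear cyclophilin (0.57), Pou2f2, a POU domain transcription factor (1.14), and Tmem39a (1.27), which also rose. On the other side Pou6f1, another POU domain factor, fell with 2.28, 1.38 and 3.28 CPM in KO and 5.31, 4.95, 13.6 and 8.20 CPM in WT mice (log2 fold change -1.77, SE 0.49). Zbtb7b, a zinc finger repressor, fell with 32.9, 20.99 and 27.9 CPM in KO and 37.5, 37.0, 54.1 and 58.9 CPM in WT mice (log2 fold change -0.78, SE 0.22). Top3a, a topoisomerase of mitochondria and nucleus, fell by 1.63 (SE 0.50) on the log2 scale, Thap3 by 1.12 (SE 0.30), the long non-coding RNA 9030619P08Rik by 1.37 (SE 0.29), and the scaffold protein gene Slc9a3r2 by 1.09 (SE 0.29), all without overlap.

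**Figure D2:**
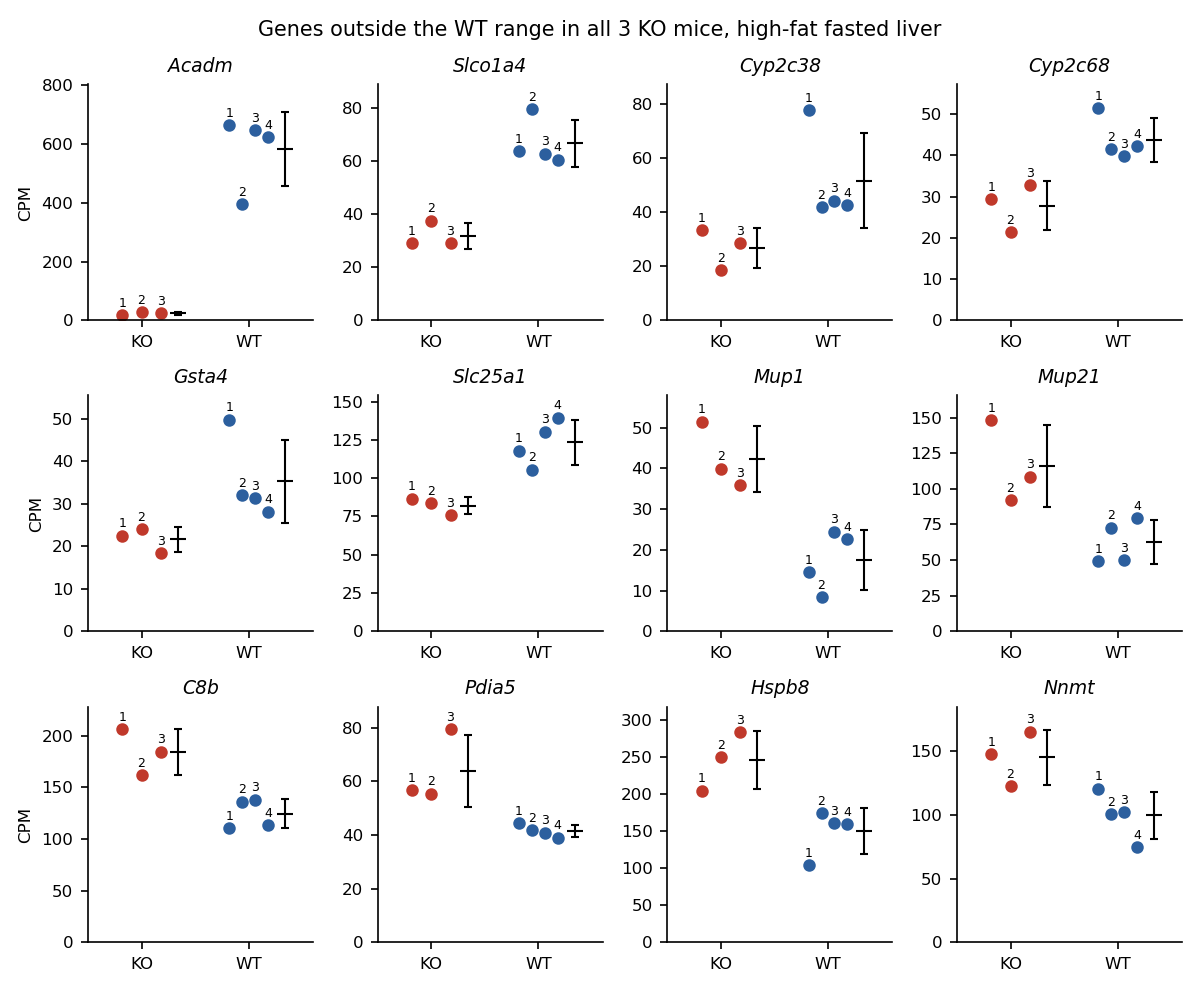
CPM of 12 genes in each HF fasted mouse, with KO mice in red, WT mice in blue, replicate numbers above the points, and the mean ± SD in black beside each group. The genes are among those shared by all KO mice, so by definition the 3 KO mice lie outside the WT range in every panel. Slco1a4, for one, had at most 37.5 CPM in KO and at least 60.5 CPM in WT mice.

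KO replicate 3 carried a strong acute-phase response that the other KO mice did not show to the same extent. Its 30 acute-phase genes summed to 57758 CPM, against 36270 and 31837 CPM in KO replicates 1 and 2, 28387 to 32835 CPM in the WT mice, and at most 44091 CPM in the 24 mice of the other conditions. Saa1, the main serum amyloid A, was at 244, 101 and 1701 CPM in KO and at 56.7, 82.3, 99.0 and 243 CPM in WT mice. Lcn2, which binds bacterial siderophores, was at 6.84, 9.63 and 59.4 CPM in KO and at 5.31, 3.43, 5.17 and 8.59 CPM in WT mice. Fgb, the fibrinogen β chain, was at 5811, 4935 and 10765 CPM in KO and at 4384, 4804, 4437 and 4017 CPM in WT mice, so that all KO mice lay above the WT mice, replicate 2 by little. Fgb had a log2 fold change of 0.70 (SE 0.23) with a p below 0.01, which went to 0.29 with a p of 0.13 without KO replicate 3.

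The promoters of Fgb, Saa1 and Lcn2, of the acute-phase list, and of Cxcl1 are shown because these genes were highest in KO replicate 3. Without that mouse the log2 fold changes of Saa1, Lcn2 and Cxcl1 moved by 1 or more, and that of Fgb by less. The sequences are from RefSeq on GRCm38.p6, run from 250 bases before to 50 bases after the transcription start, and carry in capitals the matches to TTCNNNGAA (STAT), TTGCNNAA (C/EBP), GGGANTTTC (NF-κB) and CTGGGA (acute-phase hexamer) on either strand, none of which overlap here.
Fgb, chr3:83049814-83050113, minus strand: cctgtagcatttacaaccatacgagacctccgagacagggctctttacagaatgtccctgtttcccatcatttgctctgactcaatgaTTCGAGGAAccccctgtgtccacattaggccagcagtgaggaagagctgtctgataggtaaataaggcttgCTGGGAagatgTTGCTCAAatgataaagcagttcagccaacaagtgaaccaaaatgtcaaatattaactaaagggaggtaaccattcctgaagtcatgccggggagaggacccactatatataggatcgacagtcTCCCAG
Saa1, chr7:46742931-46743230, minus strand: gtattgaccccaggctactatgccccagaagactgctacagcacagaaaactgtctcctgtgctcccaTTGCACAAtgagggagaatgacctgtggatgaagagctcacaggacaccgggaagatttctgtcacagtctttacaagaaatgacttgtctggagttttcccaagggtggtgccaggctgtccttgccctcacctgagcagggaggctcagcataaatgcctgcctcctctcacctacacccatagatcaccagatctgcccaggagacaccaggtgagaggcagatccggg
Lcn2, chr2:32387690-32387989, minus strand: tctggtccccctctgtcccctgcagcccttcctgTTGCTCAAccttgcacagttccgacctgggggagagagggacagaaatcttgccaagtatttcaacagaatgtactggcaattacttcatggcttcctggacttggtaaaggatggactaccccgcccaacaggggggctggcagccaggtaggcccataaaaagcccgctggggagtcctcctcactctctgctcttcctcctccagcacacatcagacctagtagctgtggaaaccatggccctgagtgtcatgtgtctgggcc
Cxcl1, chr5:90890995-90891294, plus strand: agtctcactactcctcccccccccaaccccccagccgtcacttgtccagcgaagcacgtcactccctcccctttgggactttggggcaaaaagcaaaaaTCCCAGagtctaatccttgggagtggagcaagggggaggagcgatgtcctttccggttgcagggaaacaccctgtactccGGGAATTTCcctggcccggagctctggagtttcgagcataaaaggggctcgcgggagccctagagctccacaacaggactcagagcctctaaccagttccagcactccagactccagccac

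In the Fgb promoter a STAT match lay at -162 to -154, hexamers at -91 to -86 and, on the other strand, at 45 to 50, and a C/EBP match at -80 to -73 from the start. The Saa1 and Lcn2 windows each held a C/EBP match, at -182 to -175 and at -216 to -209, and that of Cxcl1 an NF-κB match at -71 to -63 and a hexamer at -151 to -146. Promoters were at hand for 20 of the 27 acute-phase genes tested, with 23 promoters, of which 47.8% held the C/EBP letters, 26.1% the STAT letters, 60.9% the hexamer and 0% the NF-κB letters, against 10.8%, 8.3%, 31.8% and 1.11% of all 32851 promoters. Of the 60 promoters found for 45 of the genes shared by all KO mice, 10% held the C/EBP letters, 1.67% the STAT letters and 31.7% the hexamer. A match is a description of the letters in this window and not a site, and windows without a match say nothing of the factor. Promoters were not found for C4b, Fgl1, Hp, Lbp, Orm1, Serpina3k and Serpina3m.

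The acute-phase list as a whole depended on that mouse. Of 27 members tested, 24 had a positive log2 fold change, against 48.8% of all genes, and the median was 0.57. At p below 0.05, 7 were higher and none lower, against 1.72% and 1.97% of all genes. Without KO replicate 3 the median was 0.07 and 2 members were higher at p below 0.05, against 208 of all 10413 genes. The median was 0.50 without WT replicate 2 and 0.69 without KO replicate 1 and WT replicate 2. Within lane 7, which does not hold KO replicate 3, it was 0.21. Orm1, the acute-phase protein orosomucoid, was the member shared by all KO mice: it rose with 334, 337 and 467 CPM in KO and 297, 244, 216 and 197 CPM in WT mice (log2 fold change 0.67, SE 0.19, and 0.49 without KO replicate 3). Fgl1, a fibrinogen-like protein secreted by hepatocytes, was at 926, 905 and 3074 CPM in KO and at 358, 398, 652 and 615 CPM in WT mice, also without overlap. Its log2 fold change was 1.69 (SE 0.50) with a p of 0.0121, and 0.86 with a p of 0.0021 without KO replicate 3, the mouse in which it was highest. Among the signalling genes of this response, Cebpb, a transcription factor, was at 87.6, 133 and 160 CPM in KO and at 64.0, 87.6, 105 and 95.2 CPM in WT mice, and Stat3 at 209, 218 and 315 CPM in KO and at 153, 169, 210 and 208 CPM in WT mice. These were the 2 of 16 genes of the IL-6 and STAT3 list at p below 0.05, both higher, against 1.72% of all genes. Without KO replicate 3 the list had none, with a median of -0.02 against 0.28 with all mice.

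**Figure D3:**
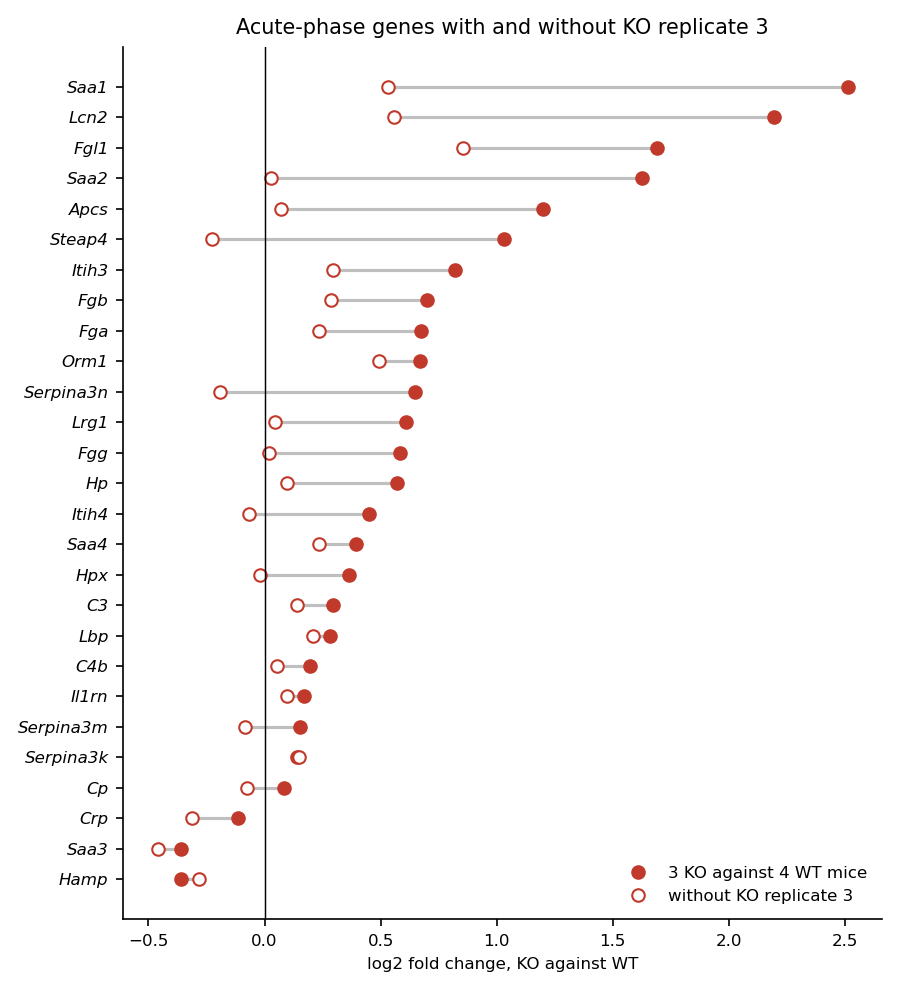
Log2 fold change of 27 acute-phase genes between KO and WT mice with all 7 mice (filled circles) and without KO replicate 3 (open circles), with a grey line joining the values of a gene. Most open circles lie near 0, and the median goes from 0.57 to 0.07.

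Leaving out KO replicate 3 moved 34 genes (0.327%) by 1 or more on the log2 scale, more than for any other mouse: 20 genes moved without KO replicate 1, 9 without KO replicate 2, 3 (0.0288%) without WT replicate 2, 3 without WT replicate 4 and 0 without WT replicates 1 and 3. A KO mouse is 1 of 3 and a WT mouse 1 of 4, so the counts of KO and WT mice are not on equal terms. None of the 34 had a p below 0.01 with all 7 mice. KO replicate 3 was the highest of the 7 mice for 27 of them, 5 were on the acute-phase list and 20 on no list. That it was mostly the highest is largely built in, because only genes high in the KO mouse left out can move this far. Cxcl1, a neutrophil chemokine, was at 28.01, 18.2 and 263 CPM in KO and at 7.83, 22.9, 13.6 and 12.9 CPM in WT mice, and its log2 fold change went from 2.88 to 0.71. The metallothioneins Mt1 and Mt2, which bind zinc, were at 106, 256 and 1073 CPM and at 43.0, 129 and 903 CPM in KO, and ranged from 50.7 to 292 CPM and from 31.6 to 142 CPM in WT mice. Il1r1, the receptor of IL-1, was at 58.5 CPM in KO replicate 3 against 8.95 to 15.6 CPM in the 6 others, and Cebpd, a further C/EBP factor, at 29.3 against 6.35 to 10.9 CPM. Outside of the inflammatory genes, Igfbp1, an insulin-repressed binding protein of IGF, was at 564 CPM against 38.5 to 162 CPM, Cdkn1a, the cyclin-dependent kinase inhibitor p21, at 46.5 against 7.62 to 22.6 CPM, and Slc37a1, a glucose 6-phosphate antiporter, at 23.8 against 1.30 to 8 CPM. Actc1 and Cyp2b9 were among the 7 genes for which KO replicate 3 was not the highest mouse, and had at most 0.688 CPM in KO replicates 1 and 2. The 10 genes that are lowered in an acute-phase response, albumin and transthyretin among them, had a median log2 fold change of 0.09 with none at p below 0.05, and summed to 80066 CPM in KO replicate 3, the highest of the 7 mice.

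**Figure D4:**
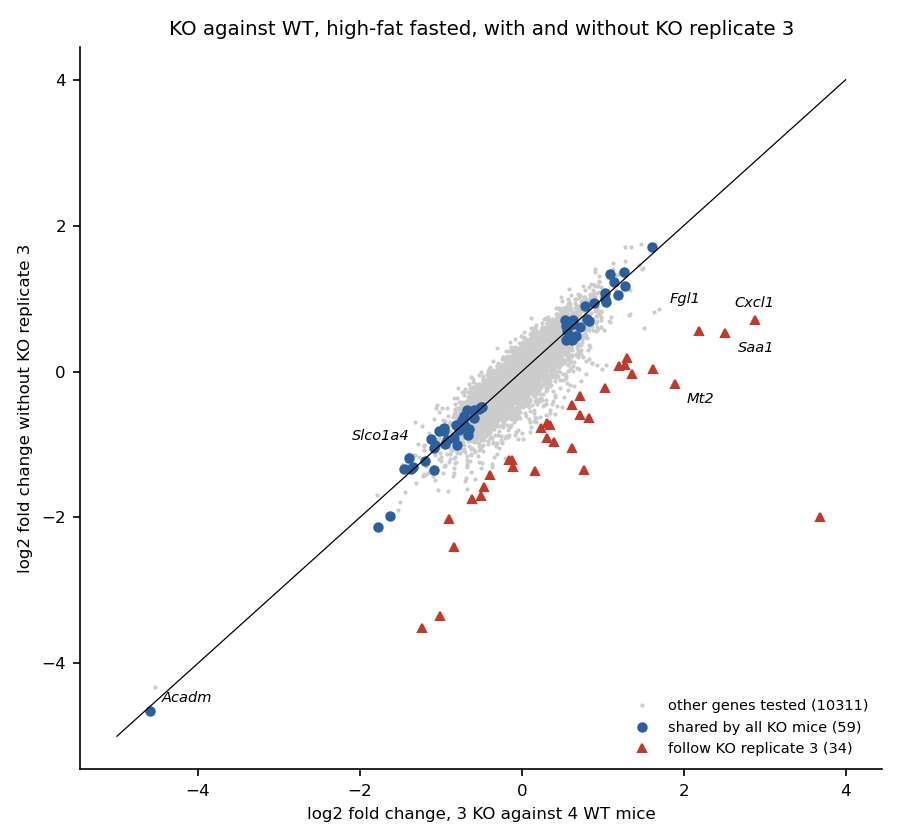
Log2 fold change of each gene between KO and WT mice without KO replicate 3 against that with all 7 mice, with the 59 genes shared by all KO mice in blue, the 34 genes that follow KO replicate 3 as red triangles and the other genes in grey. By definition the blue points lie less than 1 from the line of equal values, and the red triangles 1 or more from it. All red triangles lie below the line, as Cxcl1, which goes from 2.88 to 0.71. This direction is also built in, because leaving out 1 of 3 KO mice cannot raise their mean 2-fold.

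Markers of neutrophils and of lymphocytes and plasma cells were low in the 7 mice, the latter at 5.33 to 7.91 CPM in sum. The 7 erythroid markers summed to 465 to 642 CPM in KO and to 528 to 799 CPM in WT mice. Of the erythroid markers 5 were tested, all with a negative log2 fold change and none at p below 0.05. The 9 neutrophil markers summed to 22.5, 19.3 and 27.6 CPM in the KO mice and to 15.4, 5.71, 7.76 and 18.7 CPM in the WT mice, with all KO mice above; the granule genes Ngp, Camp, Ltf and Elane had at most 6 counts in any of the 7 mice, and 3 of the 9 markers were tested. Of these S100a8 was at 8.47, 7.91 and 9.30 CPM in KO and at 3.91, 3.81, 3.53 and 7.42 CPM in WT mice, and S100a9 at 8.14, 7.23 and 11.2 CPM in KO and at 5.03, 0.381, 3.06 and 5.47 CPM in WT mice (log2 fold changes 0.90, SE 0.37, and 1.33, SE 0.49). The 12 macrophage markers summed to 742, 603 and 480 CPM in KO and to 453, 538, 536 and 968 CPM in WT mice, and none of the 12 was at p below 0.05. The part of these cells in the acute-phase values was not tested.

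WT replicate 2 carried transcripts of the exocrine pancreas. All 28 acinar genes measured were detected in it and highest there, at 26340 CPM, and took 2.66% of its unscaled counts. They summed to 10.1 to 26.4 CPM in the 6 other mice, in which 12 of the 28 had no count at all. Cpb1, a carboxypeptidase, was at 4234 CPM against at most 2.24 CPM, Prss2, a trypsinogen, at 3449 against at most 0.838 CPM, and Pnlip, the pancreatic lipase, at 2249 CPM against 0 counts in the others. The filter on low counts kept these genes out of the test except for Cela1, an elastase, which was at 1210 CPM in WT replicate 2 and at 7.23 to 23.8 CPM in the others, with a log2 fold change of -4.54 (SE 2.36) that became -0.28 without that mouse. Dmbt1, a mucosal glycoprotein, also moved by 1 or more, with 372 CPM in WT replicate 2, 130 in KO replicate 2 and 67.9 in WT replicate 1. Of the 77 genes at p below 0.01, 0 moved by 1 or more, and 1, the lowly counted 1110051M20Rik, no longer passed the filter without WT replicate 2. Endocrine markers of the pancreas summed to 8.38 CPM in that mouse.

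Of the 77 genes, 18 were not shared by all KO mice, of which 14 rose and 4 fell. In 14 of the 18 the KO and WT values overlapped, and 5 of the 18 lost a p below 0.05 without KO replicate 3. Fgb, C8a and Cyp3a13, described above, were among these. Btg2, an antiproliferative immediate early gene, rose by 1.64 (SE 0.50) with 22.1, 10.7 and 53.9 CPM in KO and 9.22, 5.33, 12.5 and 9.76 CPM in WT mice, KO replicate 2 within the WT range. Tff3, a trefoil peptide of mucous epithelia, rose by 1.502 (SE 0.48) with 15.0, 3.44 and 10.9 CPM in KO and 1.96, 3.81, 5.41 and 2.34 CPM in WT mice. Tomm22, a receptor of the outer mitochondrial membrane translocase, fell by 0.61 (SE 0.21) on the log2 scale, with WT replicate 1 at 37.2 CPM below the KO values of 37.5 to 39.1 CPM.

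Among genes of fatty acid oxidation only Acadm passed the test with all 7 mice. Of 24 genes of mitochondrial β-oxidation tested, Acadm was the only one at p below 0.05, and the median log2 fold change was -0.10. Acadl, the long-chain acyl-CoA dehydrogenase, was at 173, 226 and 239 CPM in KO and at 247, 213, 239 and 219 CPM in WT mice (log2 fold change -0.11). Hadha, the α subunit of the trifunctional protein, was at 170, 336 and 293 CPM in KO and at 276, 206, 351 and 320 CPM in WT mice. None of 13 acyl-CoA thioesterases and acyltransferases and none of 24 PPARα and peroxisome genes tested was at p below 0.05, with medians of -0.10 and -0.00. Acot2, the mitochondrial acyl-CoA thioesterase, was at 8.79, 67.4 and 51.7 CPM in KO and at 42.8, 13.7, 45.2 and 40.2 CPM in WT mice (log2 fold change 0.25, SE 0.72). Its lowest values were in KO replicate 1 and WT replicate 2. In the remaining mice the KO values lay above all WT values.

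KO replicate 1 and WT replicate 2 were singled out by their low values of these genes, so that the values without them are a description with no test. Cyp4a31, a further ω-hydroxylase of the PPARα programme, was at 8.14, 69.2 and 70.0 CPM in KO and at 23.2, 9.14, 25.9 and 32.8 CPM in WT mice. Its log2 fold change was 1.11 (SE 0.77) with all 7 mice and 1.37 without both. Pck1, the cytosolic enzyme of gluconeogenesis, was at 3683, 11485 and 6740 CPM in KO and at 4595, 3015, 6084 and 5779 CPM in WT mice, with log2 fold changes of 0.58 with all mice and 0.74 without both. The median of the PPARα list was -0.00 with all 7 mice and 0.14 without both, and that of the gluconeogenesis list was -0.03 either way.

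Among other genes that the study names in liver, for any diet or fasting state, Acnat2 and Eif4ebp2 did not pass the test in the HF fasted mice. Acnat2, a peroxisomal acyltransferase, was at 38.4, 27.5 and 44.0 CPM in KO and at 49.5, 44.6, 32.9 and 23.4 CPM in WT mice, and Eif4ebp2, a repressor of translation, at 68.4, 82.9 and 59.1 CPM in KO and at 54.8, 70.1, 73.6 and 80.4 CPM in WT mice. Their log2 fold changes were -0.04 (SE 0.25) and 0.01 (SE 0.18), and the values overlapped widely. Star and Akr1b7, genes of steroid-producing cells, were below the filter, with at most 30 and 16 counts, both in WT replicate 3, where the adrenal cortex list summed to 32.9 CPM against 0 to 5.47 CPM in the 6 others. Around Acadm, 38 genes within 10 Mb were tested. Besides Acadm none had a p below 0.01 and 4 had a p below 0.05, 2 of them higher and 2 lower in KO. Over all genes 1.72% were higher and 1.97% lower at p below 0.05.

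Whether the genes shared by all KO mice also differed between the genotypes elsewhere was read from the other conditions, which share no mice with this one. In one model over 31 mice, no gene had an adjusted p under 0.05 for a difference of the KO effect between HF fasted and LF fasted or HF fed mice (edgeR quasi-likelihood with Benjamini-Hochberg, smallest 0.886 and 0.999). The unadjusted p of this difference was below 0.01 for 67 (0.576%) and 49 (0.421%) of 11631 genes, and below 0.05 for 405 and 343. Of the 58 shared genes other than Acadm, the sign was the same in LF fed mice for 24, in LF fasted mice for 37 and in HF fed mice for 31, and in all 3 conditions for 11, whereas 4 had the opposite sign in all 3. At p below 0.05 the same sign was seen for 2, 1 and 2 of them and the opposite sign for 6, 2 and 1. No such count over all genes is given here. The genes named next, down to Zyx, are the 11 picked for having the same sign in all 3 conditions. Slco1a4 was lower in KO in each condition, with log2 fold changes of -0.43 (SE 0.40) in LF fed, -0.48 (SE 0.37) in LF fasted and -0.84 (SE 0.39) in HF fed mice. C8b was higher in each, with 0.41 (SE 0.28), 0.51 (SE 0.28) and 0.58 (SE 0.28). Mup1 was higher with 0.38, 0.70 and 0.95, each with an SE between 0.74 and 0.76. Mettl1, Mup16, Ide, the insulin-degrading enzyme, and Ppp1r9a, the actin-binding neurabin, also were on the higher side in every condition, and Pou6f1, Thap3, 9030619P08Rik and Zyx, the focal adhesion protein zyxin, on the lower side. Cks1b, one of the 4 with the opposite sign in all 3, had -0.20, -0.14 and -0.10. Its difference of 1.17 (SE 0.45) from LF fasted and of 1.13 (SE 0.44) from HF fed mice did not pass the correction. Orm1 had 0.20, 0.13 and -0.17. Pdia5 was higher in LF fed mice by 0.59 (SE 0.21) and had -0.21 and 0.00 in LF fasted and HF fed mice.

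**Figure D5:**
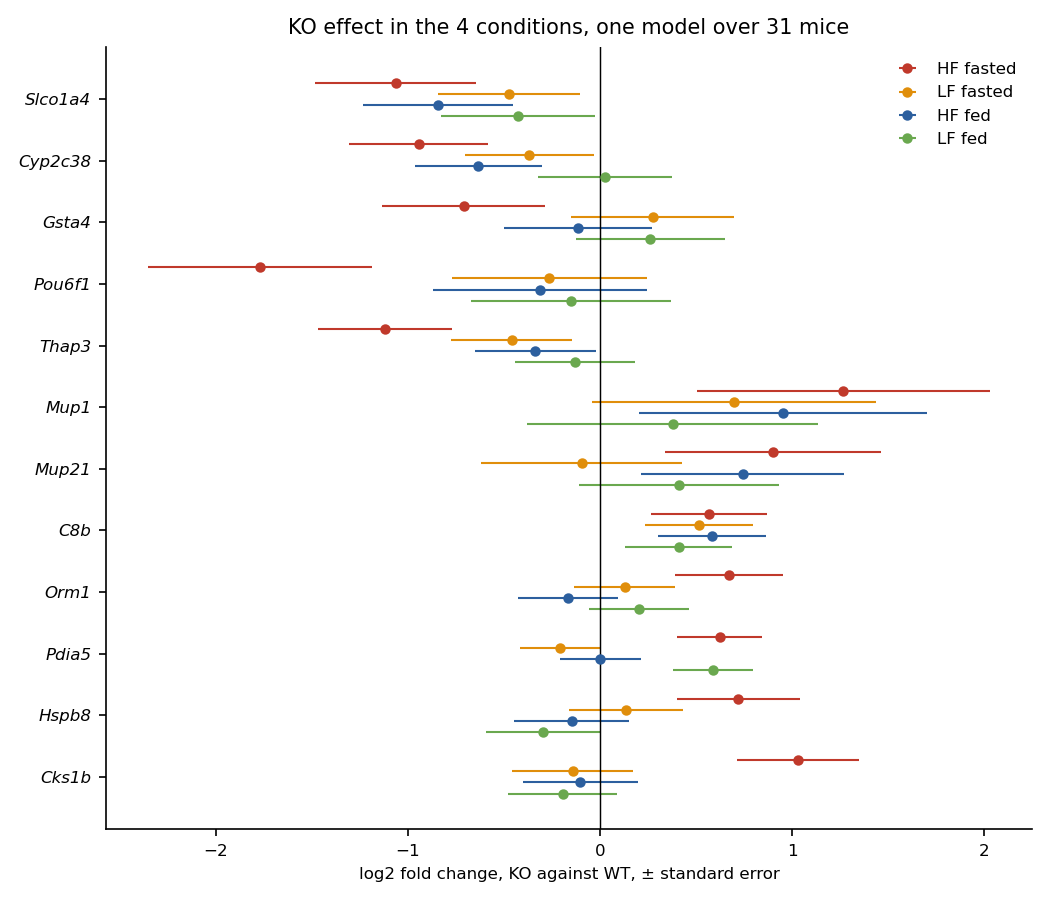
Log2 fold change between KO and WT mice, with its standard error, for 12 genes shared by all KO mice of the HF fasted condition, in the 4 conditions from one model over 31 mice. Slco1a4 lies below 0 and C8b above 0 in all 4 conditions, whereas Cks1b has 1.03 in HF fasted mice and -0.20 to -0.10 in the others.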

How the data were processed

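Livers were profiled with QuantSeq 3′ libraries in 32 mice (8 groups of 4, lanes 7 and 8). The authors aligned reads to GRCm38 with HISAT 0.1.5 and counted them per Ensembl gene with HTSeq 0.6.1p1, and SAMtools 1.2 is also named in the submitters' processing notes. The deposited table holds raw counts, from 2031053 to 4292200 per mouse. These 3′ counts follow transcript numbers, not length, and reads shared by near-identical genes cannot be assigned with certainty. Of 20076 identifiers 19918 were given a symbol, and those without held 0.1145% of the counts.

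KO and WT were compared with the edgeR 4.0.16 quasi-likelihood test (R 4.3.3, TMM scaling, default expression filter) on 3 KO and 4 WT mice. A prior count of 2 was used only for log2 CPM. The p-values were adjusted by Benjamini-Hochberg over all 10413 genes tested. CPM are per 1000000 counts of the TMM-scaled library of genes tested, and levels in the 24 other mice and KO replicate 4 were scaled over all 32 mice. A count of 0 allows up to 3 counts, 0.699 to 1.21 CPM here, which covers counting error only. Differences between conditions were contrasts in one model over 31 mice. Counts were simulated for 10413 genes in this design. There, 38% of genes changed by 1 on the log2 scale and 95% of those changed by 2 were found, with 3.62% false among the calls. Every simulated gene had the same dispersion of 0.05 and no simulated mouse stood apart, unlike in the data. Alternatives were DESeq2 1.42.0, limma 3.58.1 voom, other scaling and filters, lane, age or replicate number as terms, and leaving out mice.

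Named genes were Acadm and those the study names, the 10 per direction of smallest p, the 10 per direction that held best without KO replicate 3 and without WT replicate 2, the 8 that moved most without either mouse, and from each list its members at p below 0.01 or else up to 2 of smallest p. Others named were chosen after their values were seen, and some genes that the rule names are not reported here. The mice, the lists and the rule were chosen with earlier results of these data known. Lists are described by counts and medians with no test, and the Mup and Cyp2c families were added to the planned lists. Same-numbered KO and WT mice had residual correlations of -0.16 to -0.04, so replicate numbers were not taken as pairs. No libraries were duplicates (chi-square per gene 6.43 to 23.3).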

Additional observations from a re-analysis of the deposited data

Results flagged for a closer look

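Dixon's 95% criterion was applied to 101 measures among the 4 WT mice. In 14 of them 1 mouse lay farther from the others than it allows, and 10 of the 14 were in WT replicate 2. The measures overlap and include genes chosen for moving most without that mouse. These counts therefore cannot be compared with the 1 in 20 that chance gives for a single measure. In that mouse the levels were 396 CPM for Acadm, 13.7 CPM for the thioesterase Acot2, 2.29 CPM for Tmem39a, 79.6 CPM for the transporter Slco1a4, 1210 CPM for the elastase Cela1 and 315 CPM for Msmo1, a sterol oxidase. The summed levels were 26340 CPM for acinar genes, 5601 CPM for mitochondrial β-oxidation, 760 CPM for acyl-CoA thioesterases and 713 CPM for clock genes. WT replicate 1 stood apart with 77.7 CPM for Cyp2c38 and 10385 CPM for glutathione S-transferases, WT replicate 3 with 32.9 CPM for adrenal cortex genes and WT replicate 4 with 968 CPM for macrophage markers. The causes were not tested. The group of 3 KO mice is too small for this criterion.

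Outside the comparison, the library labelled KO replicate 4 held 35496 CPM of heart markers, the myosins and troponins of cardiac muscle, a list that reached no more than 60.4 CPM in any of the 31 other mice.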

How the results depend on the processing

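Acadm stayed between -4.79 and -4.45 on the log2 scale and past the threshold in every alternative. The 77 genes at p below 0.01 became 186 without a filter (18 with an adjusted p under 0.05), 18 with the heart library KO replicate 4, 125 without KO replicate 3 and WT replicate 2, and 59 to 94 with 1 mouse left out. Genes with an adjusted p under 0.05 were 2 with DESeq2, 3 with lane as a term (Acadm, Egr1 and Fgl1) and 2 without KO replicate 1 and WT replicate 2 (Acadm and Cyp4a31, the latter of the programme by which these mice were singled out). Within lane 8, 1 KO mouse against 2, the counts were 601 and 332; the lone KO replicate 3 was assumed to vary like the WT mice. The replicate numbers did not pair the mice, and with the replicate block 38 genes were at p below 0.01, 19 of them among the 77. The acute-phase median was 0.17 with KO replicate 4, 0.0074 without KO replicate 3 and WT replicate 2, 0.21 within lane 7, 1.18 within lane 8, and 0.07 to 0.76 with 1 mouse left out. The 551 genes whose KO mice all lay outside the WT range became 869 to 1409 with 1 mouse left out, 2393 without KO replicate 3 and WT replicate 2 and 2069 without KO replicate 1 and WT replicate 2, where fewer mice have to separate. Genes that moved without KO replicate 3 or WT replicate 2 numbered 36 at 1 and 14 at 1.5. Signs turned, among others, for Slc9a3r2 with KO replicate 4 (0.27), for Dmbt1 within lane 8 (5.90) and for Sqle within lane 7 (-1.45). Without KO replicate 3 they also turned, for Slc37a1 (-1.35), Chac1 (-1.05), Mt2 (-0.17) and Sqle (-0.63), all positive with all mice. Without WT replicate 2 the log2 fold change of Dmbt1 went from negative to positive. Of the 31 named genes at p below 0.01 other than Acadm, none held in all 21 alternatives: 31 held with DESeq2, 27 without WT replicate 2, 21 without KO replicate 3, 15 over 31 mice, 10 with the block, 9 within lane 7 and 4 with KO replicate 4. The values within lanes and without KO replicate 1 and WT replicate 2 were chosen after seeing the data. With 3 KO mice at this depth most changes of 2-fold could be missed, as 38% were found in simulated data, in which all genes had the same dispersion.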

Other observations

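Several genes followed single mice or sets of mice that cross the genotypes. Dmbt1, a mucosal glycoprotein, was at 0, 130 and 10.7 CPM in KO replicates 1 to 3 and at 67.9, 372, 0.235 and 0 CPM in WT replicates 1 to 4, and Duox2, an oxidase of mucosal epithelia, at 0, 6.88 and 0 CPM in KO and at 3.63, 7.62, 0 and 0 CPM in WT mice. Flrt3, an adhesion receptor, was at 0, 4.13 and 0.547 CPM in KO and at 3.35, 7.62, 0 and 0 CPM in WT mice. Slc26a3, the chloride exchanger of the gut, was at 0, 4.13 and 0.821 CPM in KO and at 3.91, 5.71, 0 and 0 CPM in WT mice. For these genes KO replicate 2 and WT replicates 1 and 2, all from lane 7, were the highest mice.

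The 3 genes that moved by 1 or more without WT replicate 4 were highest in it, which such a move favours by its definition. Cxcl9, a chemokine induced by interferon-γ, was at 17.6, 25.1 and 19.97 CPM in KO and at 10.3, 15.6, 11.3 and 82.4 CPM in WT mice, and the guanylate-binding protein gene Gbp4 at 7.49, 5.16 and 5.74 CPM in KO and at 3.63, 1.14, 1.65 and 21.9 CPM in WT mice. Marco, a scavenger receptor of macrophages, was at 11.1, 11.7 and 12.6 CPM in KO and at 1.68, 4.57, 5.41 and 25.4 CPM in WT mice, so that the KO mice lay above the other WT mice.

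KO replicate 1 was highest for Cyp2c70, which hydroxylates bile acids to muricholic acids, with 479, 132 and 100 CPM in KO and 144, 329, 244 and 189 CPM in WT mice. The transcriptional repressor Bcl6 was at 55.0, 11.4 and 10.9 CPM in KO and at 10.3, 41.5, 17.9 and 34.4 CPM in WT mice. Selenbp2, a selenium-binding protein, was at 219, 54.0 and 48.4 CPM in KO and at 12.6, 56.4, 83.3 and 68.7 CPM in WT mice. The pseudogene Rps13-ps1 was at 91.2 CPM in KO replicate 1 and at 75.2, 91.4 and 88.6 CPM in WT replicates 1, 2 and 4, and did not exceed 0.547 CPM in the other 3 mice, a pattern that does not follow genotype or lane.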
